A study of Mus musculus with 6 samples.

Results

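Fibronectin, 5 collagen chains, nidogen-1, Sparc, Prelp and Ecm1 were compared between B16 mouse melanoma cells and melan-a cells, a line of non-malignant mouse melanocytes. Both lines come from C57BL/6 mice. Melan-a cells are partially immortalized, and each line is a single established line, so the comparison is of these lines only. B16 cells grew in DMEM with bovine calf serum, and melan-a cells in RPMI medium with fetal bovine serum and a phorbol ester. Both were harvested at the same time after seeding, and neither was treated with retinoic acid. Medium, serum, phorbol ester and cell line cannot be told apart in this design. Labelled cDNA of one B16 and one melan-a culture was hybridised together on each of 6 Agilent whole mouse genome arrays, and each array was a separate biological replicate. B16 cDNA carried Cy3 and melan-a cDNA Cy5 in replicates 1, 3 and 5, and the dyes were exchanged in replicates 2, 4 and 6.

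The extracellular matrix is the network of secreted proteins to which cells attach. Fibrillar collagens give it tensile strength, and fibronectin is a glycoprotein that cells assemble into fibrils through integrins. Type IV collagen, laminins and nidogens form the basement membrane, the thin sheet on which melanocytes rest in the epidermis and which melanoma cells cross when they invade the dermis. Sparc is a matricellular protein, which binds collagen and modulates adhesion more than it builds structure.

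The 10 genes were chosen because the study lists them as differing between the lines, and they are 10 of its 3549 listed genes. The array files name probes and pair none with a gene. A gene was therefore traced to each probe whose mean fold over the 6 arrays gave the listed fold within 0.00051, and every such candidate was kept. Where a gene had several features, the study gave only that of greatest fold. A listed fold may thus be the largest of its gene, and any other probes of these genes are not seen here. This gave 22 candidate probes among 41174. Fn1, Col1a1, Col5a1, Col4a1, Sparc, Prelp and Ecm1 each had 1 candidate, Col4a2 had 2, Col6a1 had 5 and Nid1 had 8. With the tolerance widened to 0.001, Sparc had 2 candidates, Ecm1 3, Col6a1 7 and Nid1 12, and the other 6 genes kept the same number. The mean difference between the lines was what chose the probes. The mean ratios, their signs and the levels behind them are therefore a description, and no p-value is given for them. All ratios are log2 of B16 over melan-a, so a negative value is lower in B16. Errors are the SD or SE over the 6 arrays.

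Of the 10 genes, 9 were lower in B16 cells and Nid1 was higher. The median of the 10 mean log2 ratios was -1.75, beside -0.01 over the 39687 probes tested. A gap between these 2 medians was set by the choice of listed genes. Over the 2076 probes lower in B16 and past the thresholds given below, the median was -0.90. Fn1 and Col1a1 had the largest differences of the 10, and Col6a1 the smallest. Over all probes, limma (adjusted p under 0.10 and fold over 1.5) called 5.23% lower and 6.31% higher in B16. All 22 candidates were past these thresholds, from which nothing can be read, since the fold match had selected them. Of the 14 candidates lower in B16, 11 were lower on all 6 arrays, as were 8.37% of the 32427 probes measured on all 6. All 8 candidates of Nid1 were higher in B16 on every array, as were 10.8% of those probes. Several candidates of a gene are alternatives for 1 listed fold and not replicates of it. Probes chosen by a large mean ratio also share a sign more often than all probes, so nothing is read from these counts. At 0 of the 14 did the 6 B16 signals all lie below the 6 melan-a signals, as they did for 0.136% of tested probes. In such cultures, fewer cells that transcribe a gene and less RNA per cell cannot be told apart.

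**Figure D1:**
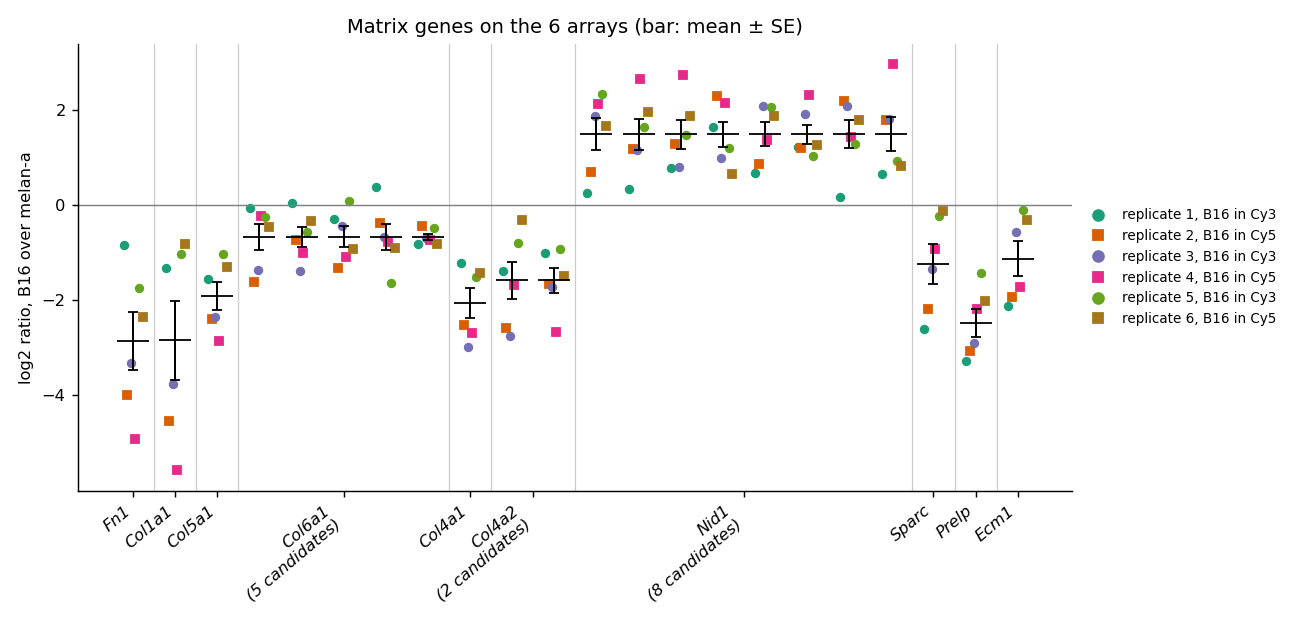
Log2 ratio of B16 over melan-a for each of the 22 candidate probes of the 10 genes. Points are the 6 arrays (circles, B16 in Cy3; squares, B16 in Cy5), and bars show the mean ± SE. All genes but Nid1 have negative means, and the points of Fn1 and Col1a1 lie furthest apart, with those of Col1a1 between -5.57 and -0.83.

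Fn1 encodes fibronectin, the adhesive glycoprotein that links integrins to collagen. Its log2 signal was between 8.41 and 11.16 in B16 cells (median 9.73), and between 9.25 and 15.39 in melan-a cells (median 12.78). The 2 ranges overlapped, but within each array B16 was the lower. The log2 ratios of replicates 1 to 6 were -0.84, -3.99, -3.33, -4.91, -1.76 and -2.35. The mean of -2.86 (SE 0.61, n = 6 arrays) was a level 7.27-fold lower in B16. Replicate 4 showed the widest gap and replicate 1 the narrowest. In replicate 1 the B16 signal was within the range of the negative controls, and the mean of the other 5 arrays was -3.27. In replicate 4 the melan-a signal lay 0.59 log2 units under the brightest spot of the array. Only 0.184% of all tested probes had a larger SD than this one, and the arrays differed widely in the size of the difference though not in its sign. No other probe of the array had a mean fold within 0.05 of that of Fn1.

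Col1a1 encodes the alpha-1 chain of type I collagen, the main fibrillar collagen of skin and bone. Its log2 signal ran from 7.70 to 10.74 in B16 cells (median 9.70) and from 9.83 to 15.55 in melan-a cells (median 11.90). The log2 ratios were -1.33, -4.53, -3.76, -5.57, -1.04 and -0.83 in replicates 1 to 6, with a mean of -2.84 (SD 2.04, SE 0.83), or 7.18-fold lower in B16. In replicates 1 and 2 the B16 signal was within the range of the negative control spots, so the ratio there has no exact size, and the mean of the other 4 arrays was -2.80. The arrays fell apart into a set with large differences (replicates 2, 3 and 4) and a set with small ones (replicates 1, 5 and 6). In replicates 5 and 6 the B16 signal of 10.49 and 10.74 was the brightest of the B16 side, and the melan-a signal of 11.53 and 11.57 was below the melan-a median. The melan-a signal of Col1a1 in replicate 4 lay 0.44 log2 units under the brightest spot of the array, and the SD of Col1a1 was exceeded by 0.0126% of tested probes.

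Col5a1 encodes the alpha-1 chain of type V collagen, a minor fibrillar collagen that starts and limits the growth of collagen I fibrils. It had log2 signals of 8.48 to 10.80 in B16 cells (median 9.70) and of 10.03 to 12.78 in melan-a cells (median 11.39). The ratios were -1.55, -2.39, -2.35, -2.85, -1.03 and -1.31, and the mean was -1.91 (SD 0.72, SE 0.29), or 3.77-fold lower in B16. The ratio nearest 0 was -1.03. Compared with Col1a1, the same 3 arrays showed the larger differences, with a narrower spread.

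Col6a1 encodes a chain of type VI collagen, which forms beaded microfibrils around cells. Its mean log2 ratio was -0.67, or 1.59-fold lower in B16, the nearest of the 10 to the 1.5-fold limit of the study's list. The 5 candidates share this mean by construction but not their spread, with an SD between 0.16 and 0.66. On 2 of the 5, B16 was lower on all 6 arrays, while the other 3 each had 1 array with a ratio above 0, up to 0.37. Between 461 and 463 other probes had a mean fold within 0.05, and each candidate is also a candidate of 2 other listed genes. Which of them reads Col6a1 was not settled, and neither was the consistency of its difference across arrays. With a limit of 800 on the summed signal the mean was -0.87.

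Col4a1 and Col4a2 encode the chains that form the common network of type IV collagen in basement membranes. The log2 signal of Col4a1 was 8.16 to 10.20 in B16 cells (median 9.05) and 9.54 to 12.47 in melan-a cells (median 11.20). Its ratios were -1.23, -2.52, -2.98, -2.69, -1.51 and -1.42, with a mean of -2.06 (SD 0.76, SE 0.31), or 4.17-fold lower in B16. Replicate 3 had the largest difference and replicate 1 the smallest, and B16 was lower on all 6 arrays. Col4a2 was 3.00-fold lower in B16 (log2 ratio -1.59), a mean that its 2 candidates share by construction. One candidate had ratios of -1.39, -2.58, -2.76, -1.68, -0.80 and -0.31 (SE 0.39), and the other of -1.01, -1.67, -1.72, -2.68, -0.94 and -1.50 (SE 0.26). They share the sign on every array and differ in the array of the largest difference, replicate 3 at the first and replicate 4 at the second. Both are also candidates of 1 other listed gene.

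The 2 genes lie head to head on opposite strands of chromosome 8 and start within a short region, which is why their promoter windows are shown. In the RefSeq table (build GRCm38.p6) their starts are 21 bases apart. Col4a1, on the minus strand, has the start of higher coordinate, so the first bases of the 2 transcripts overlap. Each window has 250 bases before the start and 50 after it, read 5′ to 3′ on the strand of its gene. That of Col4a1 is chr8:11312777-11313076 on the minus strand and that of Col4a2 is chr8:11312555-11312854 on the plus strand. They overlap by 78 bases, which are the same letters on opposite strands. Capitals mark motif matches on either strand, for TATAAA (the TATA box), CCAAT (the CCAAT box), GGGCGG (the GC box), TGANTCA (AP-1, the phorbol ester response element) and CATGTG (the M-box core that Mitf binds).
Col4a1: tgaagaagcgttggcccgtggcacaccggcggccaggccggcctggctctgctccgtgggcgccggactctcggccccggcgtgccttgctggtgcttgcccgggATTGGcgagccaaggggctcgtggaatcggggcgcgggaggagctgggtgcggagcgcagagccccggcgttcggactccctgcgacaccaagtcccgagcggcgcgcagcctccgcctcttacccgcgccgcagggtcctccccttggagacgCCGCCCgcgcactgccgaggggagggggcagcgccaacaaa
Col4a2: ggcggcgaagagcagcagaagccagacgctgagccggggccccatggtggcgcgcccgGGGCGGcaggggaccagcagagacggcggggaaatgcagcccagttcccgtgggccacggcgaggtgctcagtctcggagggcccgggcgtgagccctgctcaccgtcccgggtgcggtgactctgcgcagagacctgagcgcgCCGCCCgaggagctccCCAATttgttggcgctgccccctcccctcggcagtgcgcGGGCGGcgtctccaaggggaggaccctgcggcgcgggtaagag
The Col4a1 window has 1 CCAAT box, and 1 GC box within its overlap with the other window. The Col4a2 window has 1 CCAAT box and 3 GC boxes. The last of these 3 and the GC box of Col4a1 are the same bases on opposite strands, after both starts. Neither has a TATA box, and the GC content is 74.0% in Col4a1 and 73.7% in Col4a2, against a median of 52.7% over the 32851 promoter windows of the table.

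Nid1 encodes nidogen-1, which bridges the laminin and collagen IV networks of the basement membrane. It was the gene of the 10 with a higher level in B16, 2.79-fold (mean log2 ratio 1.48). Over the 8 candidates the SD was between 0.50 and 0.87, and single arrays had ratios between 0.17 and 2.95. At 2 of the 8 candidates the lowest B16 signal was above the highest melan-a signal, as for 0.194% of tested probes, and at the other 6 the ranges overlapped. In melan-a cells these 2 candidates were above the highest 5% of the negative controls on only 3 and 5 arrays, so their ratios on the remaining arrays have no exact size. Between 282 and 286 other probes had a mean fold within 0.05, and each candidate is also one for at least 3 other listed genes. The match on the listed fold gave all candidates one direction, and the level and spread of Nid1 itself are not known.

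Sparc, also called osteonectin, gave a strong signal in both lines. Its fold was more crowded than that of Fn1, with 61 other probes within 0.05 of it. Its log2 signal was 11.96 to 14.99 in B16 cells (median 14.49) and 14.57 to 15.68 in melan-a cells (median 15.12). The ratios were -2.61, -2.19, -1.35, -0.92, -0.23 and -0.13 in replicates 1 to 6, with a mean of -1.24 (SD 1.01, SE 0.41), or 2.36-fold lower in B16. Replicates 5 and 6 showed almost no difference. In melan-a cells the spot lay between 0.31 and 1.49 log2 units under the brightest spot of its array, and how far this ceiling narrows the ratio was not tested. Without replicate 2 the mean was -1.05, and Sparc was not past the thresholds.

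Prelp encodes a small leucine-rich proteoglycan that anchors basement membranes to the connective tissue below. Its log2 signal was between 8.10 and 10.91 in B16 cells (median 9.17) and between 10.41 and 12.72 in melan-a cells (median 11.98). The ratios were -3.28, -3.07, -2.91, -2.18, -1.44 and -2.02, with a mean of -2.48 (SD 0.71, SE 0.29), or 5.59-fold lower in B16. The ratio nearest 0 was -1.44, further from 0 than that of any other of the 7 genes with 1 candidate. The spread was among the narrowest of these 7, close to that of Col5a1.

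Ecm1 encodes extracellular matrix protein 1, a secreted glycoprotein of skin that binds other matrix proteins. It had log2 signals of 9.51 to 14.73 in B16 cells (median 13.38) and of 11.63 to 15.17 in melan-a cells (median 14.40). The ratios were -2.12, -1.94, -0.58, -1.73, -0.11 and -0.31, with a mean of -1.13 (SD 0.90, SE 0.37), or 2.19-fold lower in B16. Replicates 1, 2 and 4 carried most of the difference, and it was small in replicates 5 and 6. Without replicate 2 the mean was -0.97, and Ecm1 was not past the thresholds. The probe lay 0.77 to 4.43 log2 units under the brightest spot of the array in melan-a cells. Within 0.05 of its mean fold there were 105 other probes.

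The promoter windows of Sparc (chr11:55420031-55420330, minus strand), Prelp (chr1:133921352-133921651, minus strand) and Ecm1 (chr3:95739520-95739819, minus strand) are shown because these genes had their largest differences in replicates 1 and 2, with the same capitals as above.
Sparc: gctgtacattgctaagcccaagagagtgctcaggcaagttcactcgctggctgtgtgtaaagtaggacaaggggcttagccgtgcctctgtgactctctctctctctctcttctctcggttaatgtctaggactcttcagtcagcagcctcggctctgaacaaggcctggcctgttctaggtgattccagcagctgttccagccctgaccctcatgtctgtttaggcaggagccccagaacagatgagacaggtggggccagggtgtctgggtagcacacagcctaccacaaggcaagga
Prelp: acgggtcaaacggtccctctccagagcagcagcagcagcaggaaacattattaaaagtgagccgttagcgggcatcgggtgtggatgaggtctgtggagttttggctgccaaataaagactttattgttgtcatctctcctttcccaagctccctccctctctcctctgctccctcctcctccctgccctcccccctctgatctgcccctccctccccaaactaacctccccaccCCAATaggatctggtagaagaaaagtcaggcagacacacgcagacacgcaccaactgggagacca
Ecm1: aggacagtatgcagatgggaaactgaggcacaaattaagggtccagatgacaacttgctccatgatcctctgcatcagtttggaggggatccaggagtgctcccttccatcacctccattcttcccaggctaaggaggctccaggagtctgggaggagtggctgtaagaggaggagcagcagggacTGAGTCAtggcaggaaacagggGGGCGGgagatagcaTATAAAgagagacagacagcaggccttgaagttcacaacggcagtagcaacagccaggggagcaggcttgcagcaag
Sparc has 0 matches of these motifs, Prelp has 1 CCAAT box, and Ecm1 has a TATA box, a GC box and an AP-1 match. Windows were found for 8 of the 10 genes, not for Fn1 and Col1a1. Of the 8 windows, 5 held a GC box, as did 35.7% of all windows, 4 a CCAAT box (37.4%), 2 an AP-1 match (7.81%, Col6a1 and Ecm1), 1 a TATA box (13.6%) and 0 an M-box (14.2%). The GC box counts both GGGCGG and its reverse complement, and the other motifs likewise. The only GC box of the Col4a1 window is shared with that of Col4a2. These matches are letters in a window and say nothing about binding. The pattern over arrays that picked Sparc, Prelp and Ecm1 was noticed in these same data. Whether it has any link to their promoters was not tested.

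**Figure D2:**
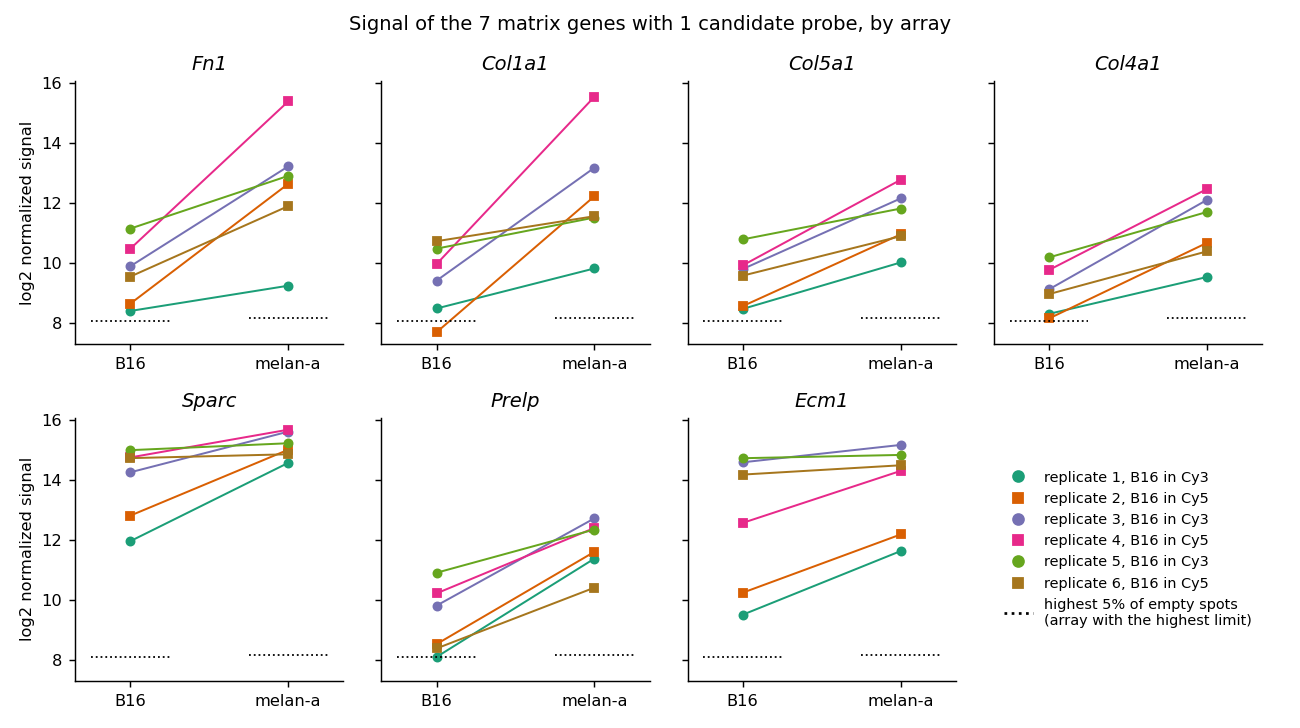
Log2 normalized signal in B16 (left) and melan-a cells (right) of the 7 genes with 1 candidate probe, with a line for each array. Dotted lines mark the limit of the highest 5% of empty spots on the array where that limit is highest. Every line is higher at melan-a, with log2 ratios of B16 over melan-a between -5.57 (Col1a1, replicate 4) and -0.11 (Ecm1, replicate 5).

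The arrays of the largest differences were not the same for all 7 genes with 1 candidate. For Fn1, Col1a1, Col5a1 and Col4a1, the 3 largest differences were those of replicates 2, 3 and 4. For Sparc, Prelp and Ecm1 the largest was replicate 1 and the next was replicate 2, and replicates 5 and 6 were the smallest. In replicate 1 the difference was thus the smallest of the 6 at Fn1 and Col4a1 and the largest at Sparc, Prelp and Ecm1. In that array the B16 signals of Fn1 (8.41), Col4a1 (8.32) and Prelp (8.10) were below the highest 5% of the negative control spots (8.66), so their ratios there have no exact size. These patterns were noticed in the data and were not tested, and they do not sort the genes cleanly.

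The arrays also differed as a whole. The median size of the log2 ratio over the probes past the thresholds was 0.65, 1.09, 0.99, 1.29, 0.76 and 0.80 in replicates 1 to 6, so this median was widest in replicates 2, 3 and 4. When each ratio was divided by the SD of its array, replicates 2, 3 and 4 still held the 3 largest values for Fn1, Col1a1, Col5a1 and Col4a1. Replicate 1 remained the largest for Sparc, Prelp and Ecm1, and the order of the others was the same for Sparc and Ecm1. For Prelp it was not, with replicate 3 next and replicate 4 the smallest. Replicates 1 and 2 were the dimmest arrays, with a median summed signal of 1093.1 and 779.9, against 1870.5 to 4307.5 in the others. The part of brightness and width in either pattern was not tested. The header of replicate 1 gives a different quantification day from that of the other 5.

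**Figure D3:**
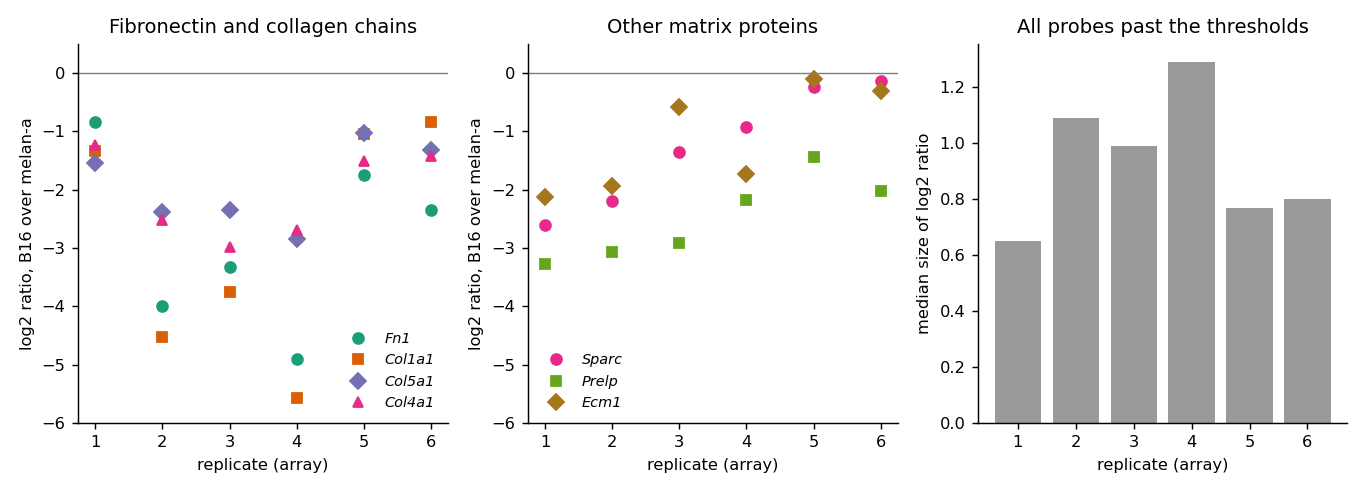
Log2 ratio of B16 over melan-a by array for Fn1, Col1a1, Col5a1 and Col4a1 (left) and for Sparc, Prelp and Ecm1 (middle), with the median size of the log2 ratio over all probes past the thresholds (right, bars from 0). Replicates 2, 3 and 4 are lowest in the left plot, and replicates 1 and 2 are lowest in the middle plot.

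Whether the dye orientation moved these genes was asked separately, since the choice of probes used the mean over both labellings and not their difference. The labelling term was tested with limma over 39659 probes, of which 0.0403% passed at an adjusted p under 0.10 and 13.2% at an unadjusted p under 0.05. Of the 22 candidates 0 passed, and 3 had an unadjusted p under 0.05. Fn1 averaged -3.75 on the 3 arrays with B16 in Cy5 and -1.97 on the 3 with B16 in Cy3 (limma unadjusted p = 0.0348, adjusted p = 0.344). Col1a1 averaged -3.65 and -2.04 (adjusted p = 0.568, limma). For both genes the difference between labellings was large in size, and neither passed after adjustment. The series matrix exchanges replicates 4 and 5, which have opposite labelling (Fn1 -4.91 and -1.76, Col1a1 -5.57 and -1.04). With that exchange, both differences between labellings would change direction. Fn1 is 1 of the 3 candidates with an unadjusted p under 0.05, the others being candidates of Col6a1 and Nid1. Prelp, with -2.43 and -2.54, and Sparc, with -1.08 and -1.40, had limma adjusted p values of 0.939 and 0.870. The smallest adjusted p from limma was 0.237, at a candidate of Col6a1 with -1.12 and -0.22. With 3 arrays a labelling, a difference of moderate size could be missed.

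**Figure D4:**
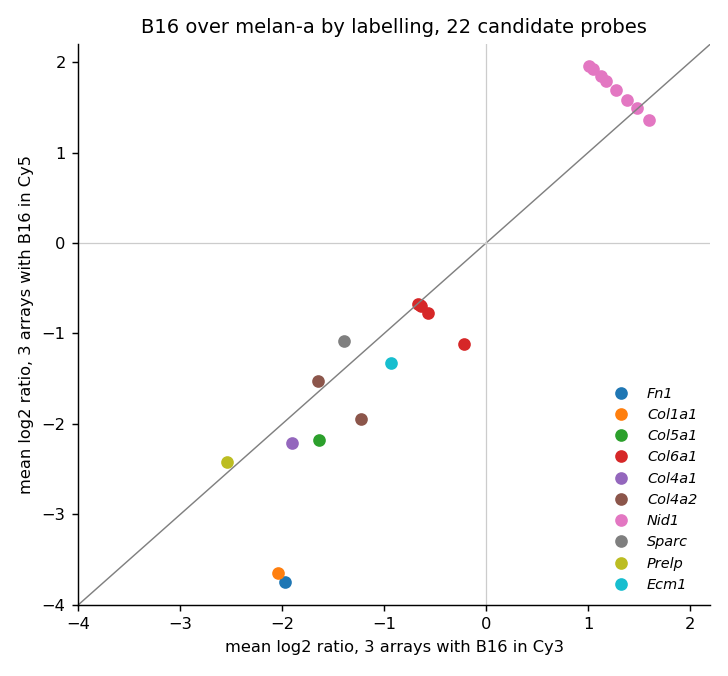
Mean log2 ratio of the 3 arrays with B16 in Cy5 (vertical axis) against the 3 with B16 in Cy3 (horizontal axis) for the 22 candidate probes. The line marks equal values, and Fn1 (-3.75 and -1.97) and Col1a1 (-3.65 and -2.04) lie furthest from it.

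The B16 signals of these genes were mostly above those of empty spots. In B16 cells every candidate of 9 of the 10 genes was above the highest 5% of the 500 empty spots on all 6 arrays, as were 85.6% of all probes. The exception was 1 candidate of Col6a1, above on 5. In melan-a cells all 10 genes were above, as were 75.1% of all probes. The negative control spots were brighter than the empty ones, and against their highest 5% only 3 genes were above in B16 on all arrays and 8 in melan-a. In B16 cells Col1a1 was above them on 4 arrays, and Fn1, Col5a1, Col4a1, Prelp and 1 candidate of Col4a2 on 5. The array that fell short was replicate 1 in each case, and also replicate 2 for Col1a1. Of the 5 candidates of Col6a1, 1 was above on 4 arrays and 1 on 2.

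The wider matrix was described through 8 lists of 155 genes in all. Of these, 43 were found in the study's list, and the others have no value here. Of the 43, 36 were lower in B16 and 7 higher, and 34 and 5 of them had every candidate past the limma thresholds. Of the 3545 listed entries with a candidate, 42.1% were lower in B16, and 66.6% had every candidate past the thresholds. The 43 include the 10 genes described above. Besides them 27 were lower and 6 higher in B16, of which 25 and 4 had every candidate past the thresholds. These genes had been selected by the study from the same 6 arrays, which leaves the counts without independent evidence of direction.

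All 4 fibrillar collagens found, of 11, were lower in B16 at every candidate (median log2 ratio -1.60). Besides Col1a1 and Col5a1 they were Col5a3 (log2 ratio -1.29), another type V chain, and Col2a1 (-0.9985), the collagen of cartilage. All 4 of 20 other collagens found were lower too (median -1.57). Col16a1, which associates with fibrils, had -2.13 (SE 0.27), the transmembrane collagen Col13a1 -1.79 and Col9a1 -1.36.

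Of 22 basement membrane genes 8 were found, 6 lower in B16 and past the thresholds, 1 higher and 1 undecided (median -1.30). Nid2, the second nidogen, was lower in B16 at its single candidate (log2 ratio -2.08, SE 0.63), in the opposite direction to Nid1. Among the laminin chains, Lama5 had -1.82 (SE 0.18) and Lamb2 -1.01, while Lamb1 had 0.96 and not all of its 8 candidates passed. The 8 genes found were thus not all of one direction.

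Matrix glycoproteins were split as well, with 4 of 23 lower in B16, 2 higher and 17 not found. Fn1, Sparc and Ecm1 are 3 of the 4, and besides them 1 was lower and 2 were higher. Matn2, a matrilin that links collagen and other filaments, had -2.34 (SE 0.46). Sparcl1, the closest relative of Sparc, was higher in B16 with a log2 ratio of 2.09, opposite in sign to Sparc, over 2 candidates. Thbs3, a thrombospondin, had 1.00 over 5 candidates. The 3 elastic fibre genes found, of 17, were lower in B16. They were Ltbp3 (-1.79, SE 0.19) and Ltbp1 (-0.62), which bind latent TGF-beta, and Efemp2 (-1.20), a fibulin. The proteoglycan list held Prelp and Ogn (-1.41), osteoglycin, with 12 of 14 not found.

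Of 22 genes of collagen maturation 5 were found, all lower in B16, and 3 of them had every candidate past the thresholds (median -0.67). Bmp1, the protease that removes the C-terminal propeptide of fibrillar collagens, had -1.37 and its enhancer Pcolce -1.23. P4ha1, a collagen prolyl hydroxylase, had -0.67. Plod3, a lysyl hydroxylase, had -0.65, and not all of its 7 candidates passed.

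Among 26 matrix receptors 11 were found, 8 lower and 2 higher in B16 and 1 undecided. Itgb5, a beta integrin that pairs with alpha-v, had -2.25 (SE 0.43), the heparan sulphate proteoglycan Sdc4 -1.58 (SE 0.29) and the laminin receptor chain Itga6 -1.41 (SE 0.34). Ddr2, a receptor for fibrillar collagen, was higher in B16 at 1.38, whereas Col1a1 was lower.

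**Figure D5:**
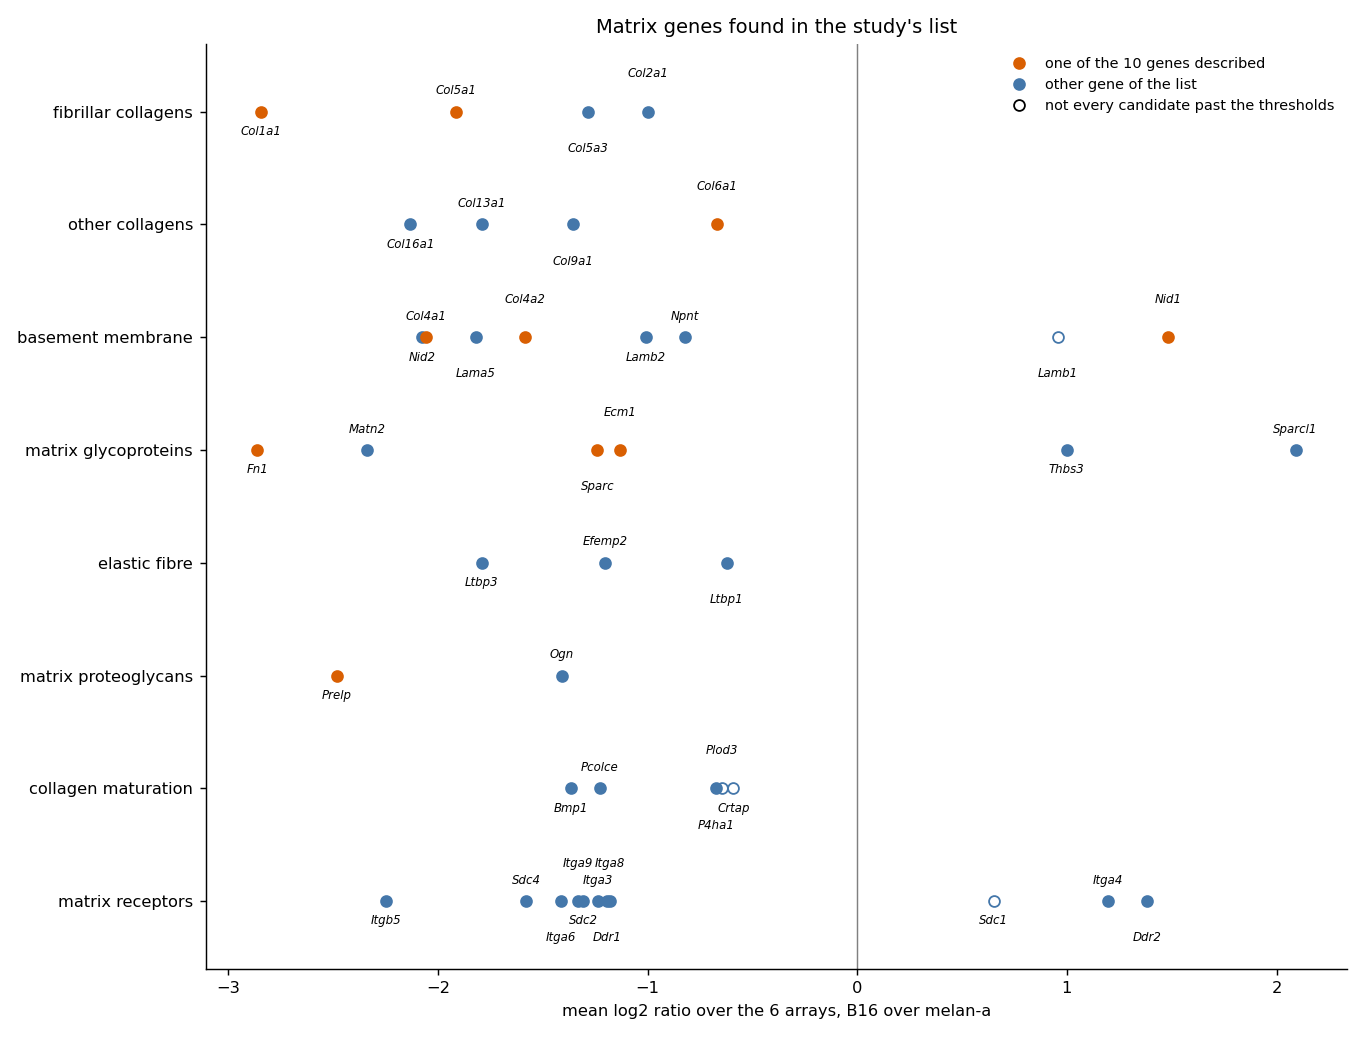
Mean log2 ratio of B16 over melan-a (horizontal axis) of the 43 matrix genes found, by list (rows). Orange points are the 10 genes described, blue points the others, and open points had a candidate short of the thresholds. Most points lie left of 0, with Nid1, Sparcl1, Thbs3, Lamb1, Itga4, Ddr2 and Sdc1 to the right.

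Other cells could add matrix transcripts to a culture, so markers were looked up in the same way. Of 12 fibroblast markers 1 was found, Pdpn, higher in B16 with a log2 ratio of 1.33, while Col1a2, Col3a1, Dcn and Lum were among the 11 not found. None of 11 keratinocyte markers was found (0 of 11). Of 8 Schwann cell markers 4 were found, among them Mbp with 2.46. Of 12 melanocyte markers Kit (-0.89), Oca2 (-2.55) and Gpnmb (1.06) were found. Markers not found have no named probe, so whether these cultures held other cells was not tested.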

How the data were processed

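Each of the 6 files holds the 44290 spots of one two-colour array. Per the file headers, the authors quantified the scans with ImaGene 6.0.1 and deposited log2 mean and median signals of both dyes after a global lowess normalization within the array (smoothing 0.2) without background correction. In replicate 3 the images are given in reverse order (Cy5 before Cy3), and each signal was assigned by its image. The series matrix holds deposited log2 ratios, in which the columns of replicates 4 and 5 hold each other's array values. The array files were used, since the replicate number and labelling named in their headers match the sample labels. Which name is right was not otherwise checked, and an exchange of the 2 names would leave each mean ratio as it is. It would exchange the values given here for replicates 4 and 5. As these replicates have opposite labelling, it would also change the comparison of labellings, and the differences at Fn1 and Col1a1 would change direction. Spot flags are not explained in the sources used here and were not used.

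The log2 ratio of mean signals was turned to B16 over melan-a, spots whose summed signal did not exceed 400 were dropped (a limit that the study sets for background-subtracted intensity), and spots of a probe were averaged. A one-class model was fitted by limma 3.58.1 (R 4.3.3) to the 39687 probes left on 3 or more of 6 arrays, with Benjamini-Hochberg adjustment over all of them. The thresholds were an adjusted p under 0.10 together with a fold over 1.5. The labelling term was fitted the same way. SAM, one-class, used all 64 sign changes of the arrays. Both tests were tested on simulated data. Python with pandas and matplotlib joined the tables and drew the plots. Arrays have no read depth, and their number limits the precision.

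Gene names came from the study's list of differing genes, by the fold match described above, and the mean ratio of a traced gene is by construction the listed one. Of 3549 entries, 2395 have a symbol, 2282 of them through their accession in the RefSeq table. A single probe matched 497 entries, the median was 5 candidates, and 4 entries matched none. Genes named besides the 10 were, of each matrix list, up to 4 with the largest mean ratio among those found. Markers and the few points labelled right of 0 in the plot by list are named as well, the latter after their values were seen. Alternatives were another signal, limit, normalization or test, and leaving out each array. Members and lists were chosen with earlier results of these data known. Retinoic acid arrays were not analysed here.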

Additional observations from a re-analysis of the deposited data

How the results depend on the processing

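Every mean ratio of the 10 genes kept its sign under the median spot signals, no intensity limit, a limit of 800, quantile normalization, centring of each array, the series matrix values and leaving out each array in turn. Except at Col6a1, every candidate had the same sign on all 6 arrays, so leaving out an array could not change it. The series matrix holds the same ratios as the array files, so that setting could not change it either. Of 120 recomputed means, 119 moved by less than the SD between arrays and 1, Col6a1 with a limit of 800 (-0.87), moved further. Most of this count was fixed in advance. For a gene with 1 candidate, leaving out 1 of 6 arrays cannot move the mean by its SD. Dropping the intensity limit or using the series matrix returned the same means. All 10 genes had every candidate past the thresholds, and between 7 and 10 did when an array was left out. Without replicate 2 the genes lost were Col6a1, Sparc and Ecm1, and Col6a1 alone was lost without replicates 3, 4, 5 or 6, with median signals, a limit of 800, quantile normalization or an adjusted p under 0.05. The probes called lower in B16 numbered 1576 to 2235 and those called higher 2011 to 2815 when an array was left out, and one-class SAM called 2142 and 2588. Calls of a labelling difference ranged from 0 to 58 of all probes when an array was left out (0 without replicate 5, 58 without replicate 6; 16 with all arrays), and 0 candidates of the 10 genes were among them in any of these fits. In B16, 7 genes were above the highest 1% of the empty spots on all arrays, and 3 above the highest 5% of the negative controls, an alternative chosen after seeing the data. The means were also taken over the arrays above those controls in both lines, likewise chosen after seeing the data. Each of the 10 kept its sign and moved by less than the SD between arrays (Fn1 -3.27, Col1a1 -2.80). Sparc and Ecm1 kept all 6 arrays and so could not move. Fn1, Col5a1, Col4a1 and Prelp kept 5, too many for a move of that size. Except at Col6a1, the sign could not change here either. The one-class fit of the ratios is itself paired, since both lines of a replicate share an array. A further block by replicate would leave nothing to fit. Signal over background limits Col1a1, Fn1, Col5a1, Col4a1, Prelp, Col4a2 and Col6a1 in B16, and candidates of Col6a1 and Nid1 in melan-a cells. The arrays, 6 in number, limit every SE.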
